A study of Mus musculus with 27 samples.

Results

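Lipid droplet and steatosis genes were followed in hepatocyte RNA from 9 inbred mouse strains. The 10 genes, Plin2, Plin4, Plin5, Cidea, Cideb, Cidec, G0s2, Pnpla2, Mogat1 and Cd36, were taken by their gene symbol as genes of triglyceride storage and release, and they are 10 of the 43346 genes in the count table. Of the 10, 9 passed the filter on low counts and were tested among 14482 genes. Cidea did not pass, with 0 counts in all 27 libraries. Hepatocytes came from the livers of females aged 12 weeks, with 3 libraries, named as biological replicates, for each strain. The strains were NZO/HlLtJ, PWK/PhJ, A/J, CAST/EiJ, C57BL/6J, WSB/EiJ, 129S1/SvImJ, NOD/ShiLtJ and DBA/2J. The labels name no treatment or engineered allele, so strain is the only labelled factor that separates the groups. Unlabelled differences between the groups were not tested. The wider study related histone marks, DNA methylation and gene expression in the same mice. NZO/HlLtJ is an obese strain, NOD/ShiLtJ is known for autoimmune diabetes, and WSB/EiJ, CAST/EiJ and PWK/PhJ are wild-derived. No body weight or liver fat content was analysed here.

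Hepatocytes store triglyceride in droplets with a neutral lipid core and a phospholipid shell studded with proteins. Perilipins coat the shell and restrain or direct lipases, CIDE proteins sit where droplets touch and promote fusion or lipid transfer, and the lipase encoded by Pnpla2 begins the breakdown of the stored fat. When fat accumulates in the liver (steatosis), several droplet genes that are otherwise typical of adipose tissue can be switched on by the nuclear receptor encoded by Pparg, among them Cidec, Cidea and Mogat1.

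Levels are given as CPM, counts divided by library size after scaling with the trimmed mean of M values (TMM), a correction for differences in library composition. Library totals ran from 17015956 to 35078511 counts, so that 1 count was worth 0.0253 to 0.0516 CPM. The hepatocyte markers were abundant in every library, with a summed level of 10 genes between 105700 and 328300 CPM. Markers of other liver cells were low but varied, from 35.8 to 449.9 CPM for 11 Kupffer cell genes and from 69.9 to 909.6 CPM for 12 liver endothelial genes. Of the 8 adipocyte markers, whose sum was 4.10 to 18.3 CPM, Plin1, Lep, Retn and Cfd had at most 3 counts in any library. Adipoq had at most 7 counts and Slc36a2 4.06, while Fabp4 reached 349 and Lipe 508, both of which other cell types express too. In bulk RNA of this kind, a change in the proportion of a cell type and a change in RNA per cell cannot be told apart.

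A strain effect was called for 7 of the 9 tested genes (edgeR's quasi-likelihood test, adjusted p under 0.05). This share has to be read against the background, because 74.2% of all tested genes showed a strain effect. The called genes were Cd36 (adjusted p = 5.83e-09), Pnpla2 (0.000225), Plin2 (0.00135), Cidec (0.0095), Cideb (0.01), G0s2 (0.0159) and Plin5 (0.029). Plin4 (0.0972) and Mogat1 (0.154) did not pass. The spread between strain means differed widely among the genes, from 1.57-fold for Cideb to 33.8-fold for Cd36. Leaving out all 3 libraries of a strain removed the call for G0s2 without C57BL/6J (adjusted p = 0.0867), for Cidec without CAST/EiJ (0.13) and for Plin5 without PWK/PhJ (0.114), and gave one for Plin4 without 129S1/SvImJ (0.0392). Leaving out 1 library removed the call for G0s2 without C57BL/6J replicate 4 (0.0558) and for Plin5 without PWK/PhJ replicate 1 (0.0529) or 3 (0.0613). A call appeared for Mogat1 without DBA/2J replicate 3 (0.0123) and for Plin4 without 129S1/SvImJ replicate 3 (0.0154) or A/J replicate 1 (0.0281). DESeq2 (0.0422) and a fit without the filter on low counts (0.0168) also called Plin4.

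**Figure D1:**
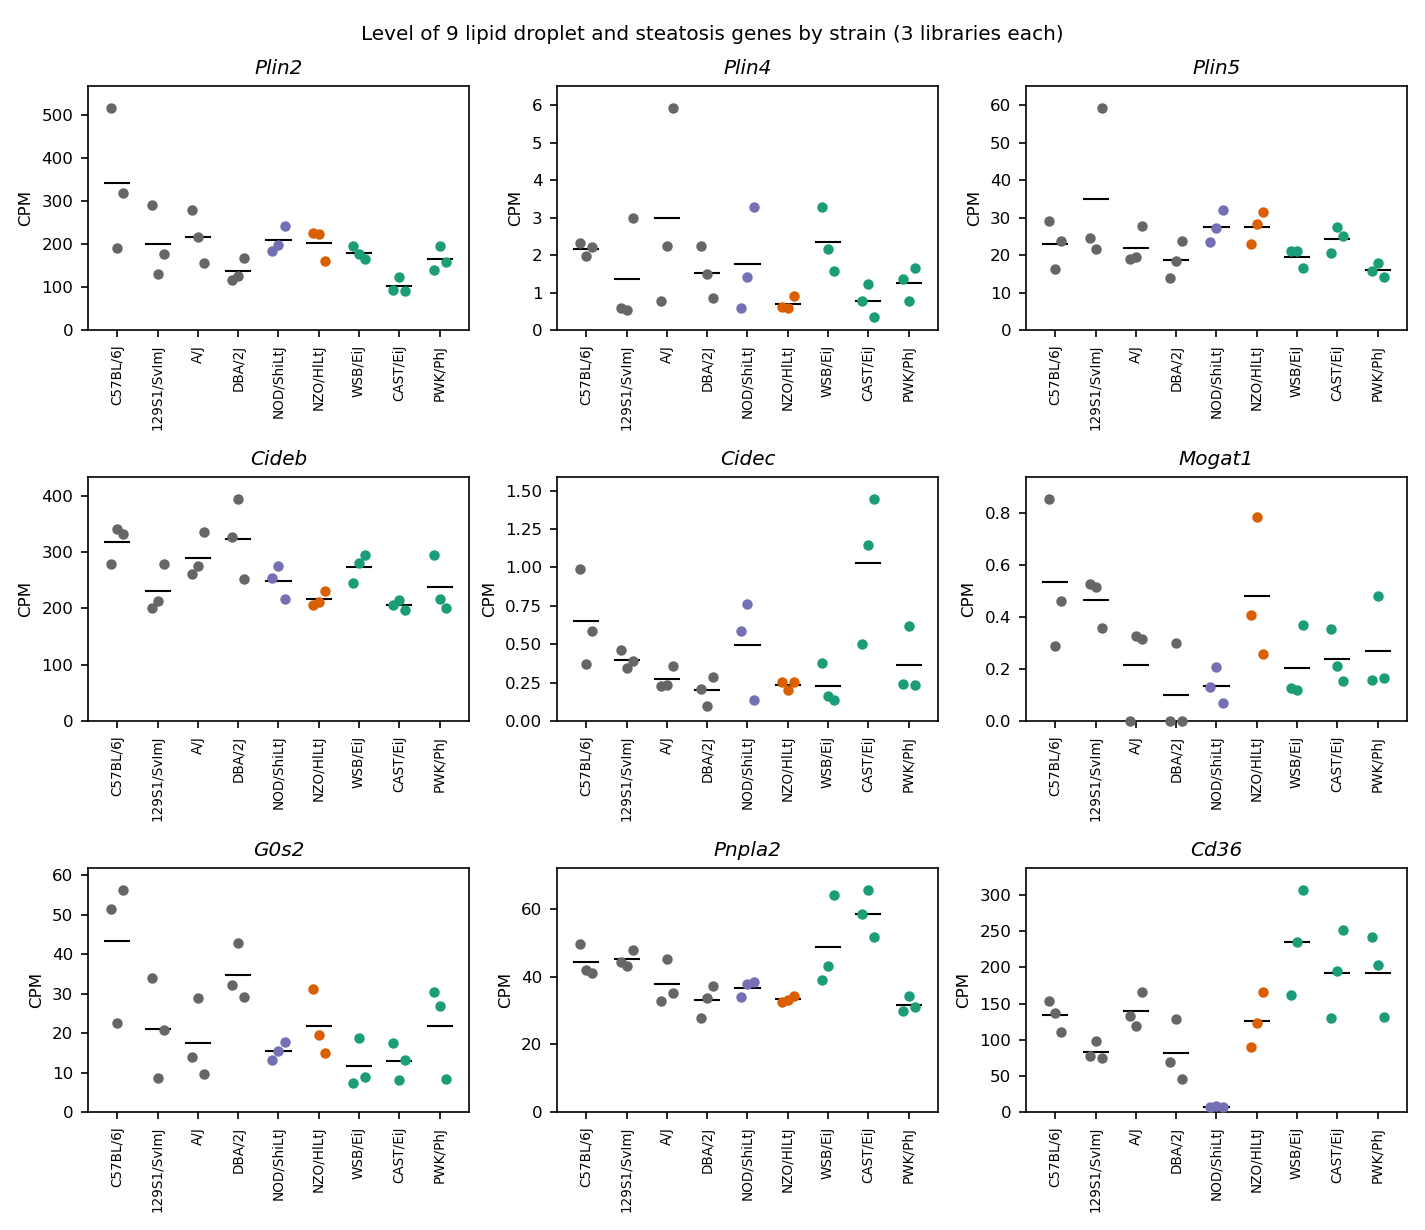
Level of 9 of the 10 genes (y axis, CPM, linear from 0) in each of the 27 libraries (points), by strain (x axis), with a line at the mean of 3 libraries; NZO/HlLtJ is orange, NOD/ShiLtJ purple, the wild-derived strains green and the others grey. The 3 NOD/ShiLtJ points lie near 7 CPM for Cd36, while most other panels show strains that overlap; Cidea is not drawn because it had no counts.

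Cd36, the scavenger receptor and fatty acid translocase through which cells take up long-chain fatty acids, differed most among the strains. It lies on the minus strand of chromosome 5 (GRCm38, chr5:17781690-17888801). Its RefSeq promoter window (GRCm38.p6, chr5:17835847-17836146, 250 bases before to 50 after a start) is printed because Cd36 carries the strongest strain difference of the 10 genes. None of the 6 GENCODE transcripts of Cd36 starts inside this window. The capitals mark TGACCT, the opposite-strand form of AGGTCA, a half-site of the kind that nuclear receptors such as the PPARs recognise; its first base lies 228 bases before the start.
Cd36 promoter: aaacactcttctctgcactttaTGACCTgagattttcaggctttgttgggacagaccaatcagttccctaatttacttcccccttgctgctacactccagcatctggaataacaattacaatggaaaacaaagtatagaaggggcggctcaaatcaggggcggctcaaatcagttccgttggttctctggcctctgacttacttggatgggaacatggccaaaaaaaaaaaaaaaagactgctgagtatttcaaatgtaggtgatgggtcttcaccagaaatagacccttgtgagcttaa

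Cd36 was very low in NOD/ShiLtJ, at 6.46, 7.90 and 6.48 CPM in its 3 libraries, which rest on 186 to 228 counts each. In the other 24 libraries it ran from 46.3 CPM in DBA/2J replicate 4 to 306.5 CPM in WSB/EiJ replicate 4. All 3 NOD/ShiLtJ libraries therefore lay below all others without overlap, an arrangement that 0.49% of the tested genes showed for this strain. Against the mean of the other 8 strains, Cd36 was 20-fold lower in NOD/ShiLtJ (log2 difference -4.32 ± 0.331, SE, adjusted p = 4.75e-10, n = 3 against 24). The background for this contrast was 14.9% of genes called, and 5.72% called lower. With 1 library left out at a time the log2 difference stayed between -4.42 and -4.26. Whether NOD/ShiLtJ reads were aligned to a genome of their own strain is not given in the sources used here, and a part of it in this value was not tested. Kupffer cells and liver endothelial cells also express Cd36, so their markers were set beside it. The summed Kupffer cell markers of NOD/ShiLtJ (75.0 to 85.7 CPM) and its endothelial markers (151.5 to 273.4 CPM) lay within the range of the other strains, and the difference was -4.36 with both marker levels as covariates.

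The wild-derived strains held the highest Cd36. WSB/EiJ had 162, 235 and 306.5 CPM, CAST/EiJ 130.1, 195 and 252 CPM, and PWK/PhJ 242, 203 and 131 CPM. Their ranges overlapped with one another and with A/J (119 to 166 CPM) and NZO/HlLtJ (89.8 to 166 CPM). C57BL/6J (110.5 to 153 CPM) lay below WSB/EiJ and overlapped with the other 2. The next strains, 129S1/SvImJ (74.2 to 98.0 CPM) and DBA/2J (46.3 to 128 CPM), lay below all 3 and overlapped with each other and with NZO/HlLtJ. Cd36 was called higher than the mean of the other strains in WSB/EiJ (1.39 ± 0.205, adjusted p = 1.43e-05), CAST/EiJ (1.07 ± 0.211, 0.000272) and PWK/PhJ (1.07 ± 0.211, 0.000314), where the background was 15.5%, 20.1% and 19.4% of genes called higher. These values include NOD/ShiLtJ in the mean of the others. Without NOD/ShiLtJ, WSB/EiJ stayed higher at 0.87 ± 0.225 (adjusted p = 0.00665), while CAST/EiJ gave 0.55 (0.0676) and PWK/PhJ 0.53 (0.0831). In that fit DBA/2J was lower by -0.88 ± 0.262 (0.0279) and 129S1/SvImJ by -0.86 ± 0.261 (0.026). A strain effect on Cd36 remained without NOD/ShiLtJ (adjusted p = 0.00166). PWK/PhJ also had the highest endothelial markers, at 283.5 to 909.6 CPM, and with the Kupffer and endothelial levels as covariates its Cd36 difference was 0.47 (adjusted p = 0.21), against 1.18 for CAST/EiJ and 1.45 for WSB/EiJ.

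**Figure D2:**
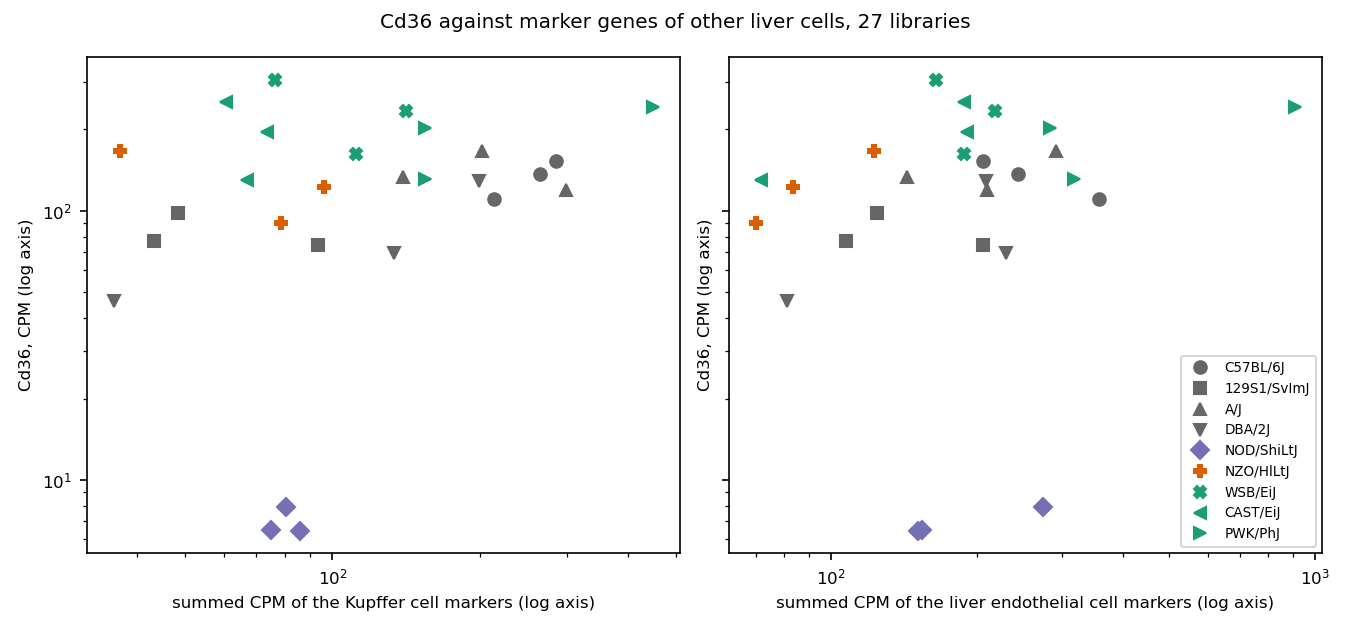
Cd36 level (y axis, CPM, log scale) against the summed level of 11 Kupffer cell markers (left x axis, CPM, log scale) and 12 liver endothelial markers (right x axis, CPM, log scale), with 1 symbol per library and 1 shape per strain. The 3 NOD/ShiLtJ libraries lie at 6.46 to 7.90 CPM of Cd36, below the other 24, at marker levels inside the range of those libraries.

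The genes whose level ran most like that of Cd36 over the 27 libraries were B4galnt1 (Pearson r = 0.92 on log2 CPM), Sdc2 (r = 0.90) and Cyp2a12 (r = 0.89), among 10494 genes of at least 1 CPM. B4galnt1, which encodes an enzyme of ganglioside synthesis, was at 0.622 ± 0.0679 CPM (SD, n = 3) in NOD/ShiLtJ and at 76.0 CPM or more in every other library. The 3 NOD/ShiLtJ libraries stand apart from the rest for both genes, so r describes mainly that gap.

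Among the perilipins, Plin2 was the one present at high levels. It encodes the coat protein that covers most droplets in hepatocytes, and its product is stabilised by stored lipid. Per kilobase of exon the mean over all libraries was 55.4 CPM for Plin2, 11.4 CPM for Plin5 and 0.287 CPM for Plin4, a larger difference than any of the 3 showed between strains. Plin5 encodes a coat protein of oxidative tissues that links droplets to mitochondria. Plin4 encodes a coat protein best known from adipocytes. The promoter windows of Plin2 (chr4:86670010-86670309) and Plin5 (chr17:56117499-56117798), from RefSeq on GRCm38.p6 and both read on the minus strand, are printed because each holds the same half-site as Cd36. The capitals mark TGACCT in Plin2 (218 bases before the start), AGGTCA in Plin5 (170 bases before the start) and the E-box CACGTG that begins 4 bases before the Plin2 start.
Plin2 promoter: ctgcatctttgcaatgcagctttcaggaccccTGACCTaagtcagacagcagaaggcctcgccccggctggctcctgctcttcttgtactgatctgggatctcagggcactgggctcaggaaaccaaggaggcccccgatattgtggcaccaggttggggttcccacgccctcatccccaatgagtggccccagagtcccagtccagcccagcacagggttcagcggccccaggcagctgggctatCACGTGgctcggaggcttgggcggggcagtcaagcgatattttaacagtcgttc
Plin5 promoter: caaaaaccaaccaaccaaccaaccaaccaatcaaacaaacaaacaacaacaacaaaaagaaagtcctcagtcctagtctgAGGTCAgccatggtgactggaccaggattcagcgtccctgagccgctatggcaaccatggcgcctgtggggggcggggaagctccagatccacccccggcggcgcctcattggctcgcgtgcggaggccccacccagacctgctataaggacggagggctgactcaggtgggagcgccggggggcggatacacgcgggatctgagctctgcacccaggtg

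RefSeq windows were found for 9 of the 10 genes, 11 windows in all. On either strand, AGGTCA was present in 4 of the 11 windows, those of Plin2 and Cd36 and both of Plin5 (in the second, 13 bases after the start), against 16.3% of 32851 mouse promoter windows of the same length. CACGTG was present in that of Plin2 only, against 7.15% of windows, and TATAAA in that of Cideb only, against 13.6%. The longer repeat AGGTCANAGGTCA, of which AGGTCA is a part, was in none of the 11 windows and in 0.0396% of all windows. Such a match is a description of letters, not a bound site.

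Plin2 was highest in C57BL/6J and lowest in CAST/EiJ. C57BL/6J libraries held 515, 191 and 319 CPM, and CAST/EiJ libraries 93.4, 124 and 91.5 CPM. NZO/HlLtJ, with 224, 223 and 160.1 CPM, lay in the middle, overlapping with every strain except CAST/EiJ. CAST/EiJ overlapped only with DBA/2J (117 to 166 CPM), and all its libraries lay below those of the other 7 strains. Plin2 was 1.93-fold lower in CAST/EiJ than the mean of the other strains (log2 -0.95 ± 0.236, adjusted p = 0.0026) and 1.99-fold higher in C57BL/6J (0.99 ± 0.198, 0.000828). The background was 17.8% of genes called lower in CAST/EiJ and 11.6% called higher in C57BL/6J. The C57BL/6J value rests in part on replicate 1, without which it was 0.57 (adjusted p = 0.0657). The gene most like Plin2 over the libraries was Pex19 (r = 0.83), which encodes a peroxisome biogenesis factor, followed by Adck5 (0.73) and Tle3 (0.72).

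Plin5 varied less. PWK/PhJ was lowest at 15.8, 17.9 and 14.2 CPM, and 129S1/SvImJ had the highest mean at 24.4, 21.6 and 59.2 CPM. Its replicate 3 was the highest of all 27 libraries, while the other 2 overlapped with libraries of other strains. NZO/HlLtJ libraries (23.0, 28.3 and 31.5 CPM) all lay above those of PWK/PhJ. The test called Plin5 lower in PWK/PhJ (log2 -0.60 ± 0.225, adjusted p = 0.0398, background 14.8% of genes called lower) and higher in 129S1/SvImJ (0.67 ± 0.199, 0.0213, background 10.5% called higher). Without 129S1/SvImJ replicate 3 its difference fell to 0.0657 (adjusted p = 0.864), so that call rests on 1 library. The PWK/PhJ call was lost when any 1 of its 3 libraries was left out, with differences of -0.60, -0.70 and -0.53 (adjusted p 0.116, 0.0673 and 0.156 without replicates 1, 2 and 3). With the Kupffer and endothelial covariates the 129S1/SvImJ call was lost too (adjusted p = 0.0582). The genes most like Plin5 were Fkbp5 (r = 0.75), a glucocorticoid-induced chaperone gene, Fbxo31 (0.72) and Cxxc1 (0.71).

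Plin4 was scarce in all strains, with 7 to 150 counts per library. Its lowest levels were in NZO/HlLtJ (0.612, 0.582 and 0.898 CPM) and CAST/EiJ (0.768, 1.24 and 0.361 CPM). The highest mean was in A/J, at 0.776, 2.25 and 5.93 CPM. WSB/EiJ (1.57 to 3.29 CPM) and C57BL/6J (1.97 to 2.32 CPM) were the 2 strains whose libraries all lay above NZO/HlLtJ. The median coefficient of variation of Plin4 within strains was 44.9%. Exons of Plin4 overlap those of Hdgfl2 on the opposite strand, and the library kit is not stated to keep the strand, so reads of the 2 genes cannot be fully told apart.

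Of the CIDE genes, Cideb was abundant and the other two were scarce or absent. Per kilobase of exon Cideb averaged 175 CPM, Cidec 0.232 CPM and Cidea 0. Cideb encodes a hepatocyte droplet and endoplasmic reticulum protein that takes part in VLDL lipidation. Cidec and Cidea encode proteins that enlarge droplets in white and brown fat and appear in fatty liver. Cidea had no count in any of the 27 libraries, NZO/HlLtJ included. With a floor of 3 counts this allows at most 0.0759 to 0.155 CPM per library, for counting error only.

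Cidec was highest in CAST/EiJ, a wild-derived strain. CAST/EiJ libraries held 0.502, 1.15 and 1.44 CPM (17 to 38 counts), and NZO/HlLtJ libraries 0.255, 0.203 and 0.257 CPM (8 to 10 counts). No NZO/HlLtJ library reached the lowest of CAST/EiJ, while C57BL/6J (0.370 to 0.991 CPM), NOD/ShiLtJ (0.139 to 0.762 CPM) and PWK/PhJ (0.232 to 0.619 CPM) overlapped with CAST/EiJ. Cidec was 3.05-fold higher in CAST/EiJ than the mean of the other strains (log2 1.61 ± 0.373, adjusted p = 0.0014, background 20.1% of genes called higher). Its difference stayed called when any 1 library was left out, between 1.31 and 1.95. The gene most like Cidec was Acot8 (r = 0.73), which encodes a peroxisomal acyl-CoA thioesterase, followed by Mgll (0.69), the monoglyceride lipase gene, and Akt1 (0.68).

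Cideb had the narrowest spread between strain means of the 9 genes with counts. It was highest in DBA/2J (327, 394 and 252 CPM) and C57BL/6J (279, 342 and 332.5 CPM), and lowest in CAST/EiJ (207, 215 and 197 CPM) and NZO/HlLtJ (206, 211 and 231 CPM). The libraries of CAST/EiJ and NZO/HlLtJ overlapped with each other and lay below all those of DBA/2J, C57BL/6J, A/J and WSB/EiJ. Cideb was called lower in CAST/EiJ (-0.36 ± 0.134, adjusted p = 0.0378), but not without its replicate 1 (-0.36, 0.113), 4 (-0.39, 0.0843) or 5 (-0.33, 0.146), nor with the marker covariates (-0.19, 0.2). Exons of Cideb overlap those of Nop9 on the opposite strand, and both genes had counts that were not whole in 27 libraries. Each Cideb count lay within 0.0068% of a whole number, which does not give the share of its reads that Nop9 could also claim. That share was not tested. The gene most like Cideb was Cyp2d26 (r = 0.91), followed by Tmem205 (0.89) and Agpat1 (0.89), a gene of triglyceride synthesis.

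The Cidec to Cideb ratio was the highest in CAST/EiJ, which had the highest Cidec mean and the lowest Cideb mean. Its log2 difference from the other strains was larger for Cidec (1.61) than for Cideb (-0.36), whose call was easily lost. On the log2 scale of CPM with 0.5 added, the ratio was -7.69, -7.03 and -6.67 in CAST/EiJ and -8.10, -8.23 and -8.26 in NZO/HlLtJ. All CAST/EiJ libraries lay above those of NZO/HlLtJ. Strain means ran from -8.84 in DBA/2J to -7.13 in CAST/EiJ, a range of 1.71 (permutation test of strain labels, 100000 permutations, p = 0.0041, adjusted over 2 ratios 0.0082). The added 0.5 CPM is close to the level of Cidec itself and sets much of this size. With 0.1 CPM added the range was 2.49 (adjusted p = 0.0099), and with 2 CPM it was 1.07 (0.0056).

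Among the genes of fat release, Pnpla2 was highest in CAST/EiJ. It encodes adipose triglyceride lipase. CAST/EiJ libraries held 58.5, 65.6 and 51.9 CPM, and the lowest strain, PWK/PhJ, held 29.9, 34.2 and 31.0 CPM. NZO/HlLtJ was near the low end with 32.6, 33.2 and 34.3 CPM, close together, and below all libraries of CAST/EiJ, WSB/EiJ, 129S1/SvImJ and C57BL/6J. CAST/EiJ was called higher (log2 0.61 ± 0.112, adjusted p = 0.000123) and PWK/PhJ lower (-0.39 ± 0.123, 0.0168). The CAST/EiJ call remained without any 1 library (0.53 to 0.69), whereas the PWK/PhJ call was lost without its replicate 1 (-0.35, adjusted p = 0.088) or 3 (-0.37, 0.0678), or with the marker covariates (-0.30, 0.18). The genes most like Pnpla2 were Nudt19 (r = 0.82), Dffa (0.81) and Acsm3 (0.79).

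G0s2 encodes the protein inhibitor of that lipase. It varied strongly between mice of the same strain, with a median coefficient of variation of 42.0% within strains. C57BL/6J had the highest mean (51.4, 22.5 and 56.2 CPM) and WSB/EiJ the lowest (7.25, 18.7 and 8.93 CPM). NZO/HlLtJ, with 31.1, 19.4 and 14.9 CPM, overlapped with all other strains. G0s2 was 2.33-fold higher in C57BL/6J than the mean of the others (log2 1.22 ± 0.329, adjusted p = 0.0108), but without its replicate 1 the adjusted p was 0.0593 (1.08), without replicate 4 it was 0.141 (0.99), and with marker covariates it was 0.354 (0.81). Kupffer cell markers were at 213.6 to 285 CPM in C57BL/6J, and PWK/PhJ (154 to 449.9 CPM) and A/J (138.9 to 298.6 CPM) overlapped with it. The part of such cells in the G0s2 value was not tested. The genes most like G0s2 were Notch1 (r = 0.68), Ifit3b (0.65) and Dab2ip (0.64).

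The ratio of the inhibitor's transcript to the lipase's differed among strains. On the log2 scale it was 0.20, 0.34 and -0.35 in DBA/2J, the highest, and -1.70, -2.96 and -1.95 in CAST/EiJ, the lowest. These 2 strains did not overlap. NZO/HlLtJ (-0.07, -0.76 and -1.18) overlapped with DBA/2J and lay above CAST/EiJ. The range of strain means was 2.27 (permutation test, p = 0.0092, adjusted over 2 ratios 0.0092).

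Mogat1 encodes a monoacylglycerol acyltransferase, an enzyme of a side route to triglyceride that is raised in fatty liver. It was at 0 to 31 counts per library, with 3 libraries at 0, in A/J (replicate 1) and DBA/2J (replicates 2 and 4). The highest means were in C57BL/6J (0.855, 0.287 and 0.463 CPM), NZO/HlLtJ (0.408, 0.785 and 0.257 CPM) and 129S1/SvImJ (0.527, 0.515 and 0.359 CPM), which overlapped with one another. NZO/HlLtJ overlapped with 7 of the other 8 strains and lay above NOD/ShiLtJ (0.130, 0.208 and 0.0697 CPM). The fitted difference of NZO/HlLtJ from the mean of the others was 2.06-fold, with a 95% interval on the log2 scale from -0.11 to 2.20. Exons of Mogat1 overlap those of BC035947 on the opposite strand.

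NZO/HlLtJ, the obese strain, stood apart from the mean of the other 8 strains in none of the 9 tested genes by edgeR's test, at a background of 27.6% of genes called. The unadjusted p was under 0.05 for 3 of them, all lower in NZO/HlLtJ. These were Plin4 (log2 -1.26 ± 0.554, adjusted p = 0.0922), Pnpla2 (-0.31 ± 0.122, 0.064) and Cideb (-0.28 ± 0.133, 0.114). DESeq2 called 2 of these, Plin4 (-1.27, 0.0434) and Pnpla2 (-0.32, 0.0322). Pnpla2 also passed in edgeR without WSB/EiJ replicate 2 (-0.32, 0.0428). The gene nearest to a rise was Mogat1 (1.04 ± 0.56, 0.165), called only when DBA/2J replicate 3 was left out (1.59, 0.0262). For Plin2 the difference was 0.14 with a 95% interval from -0.30 to 0.59. The interval was -0.14 to 0.71 for Plin5, -0.64 to 0.85 for G0s2, -1.69 to 0.22 for Cidec and -0.08 to 0.85 for Cd36. The Cd36 value was 0.39 with NOD/ShiLtJ among the others and -0.15 without it. With marker covariates, and NOD/ShiLtJ among the others, Cd36 was called higher at 0.79 (adjusted p = 0.0295). The covariate fit was not run without NOD/ShiLtJ. NZO/HlLtJ had the lowest summed endothelial markers of the 9 strains, on average 92.1 CPM, and their part in the Cd36 value was not tested.

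**Figure D3:**
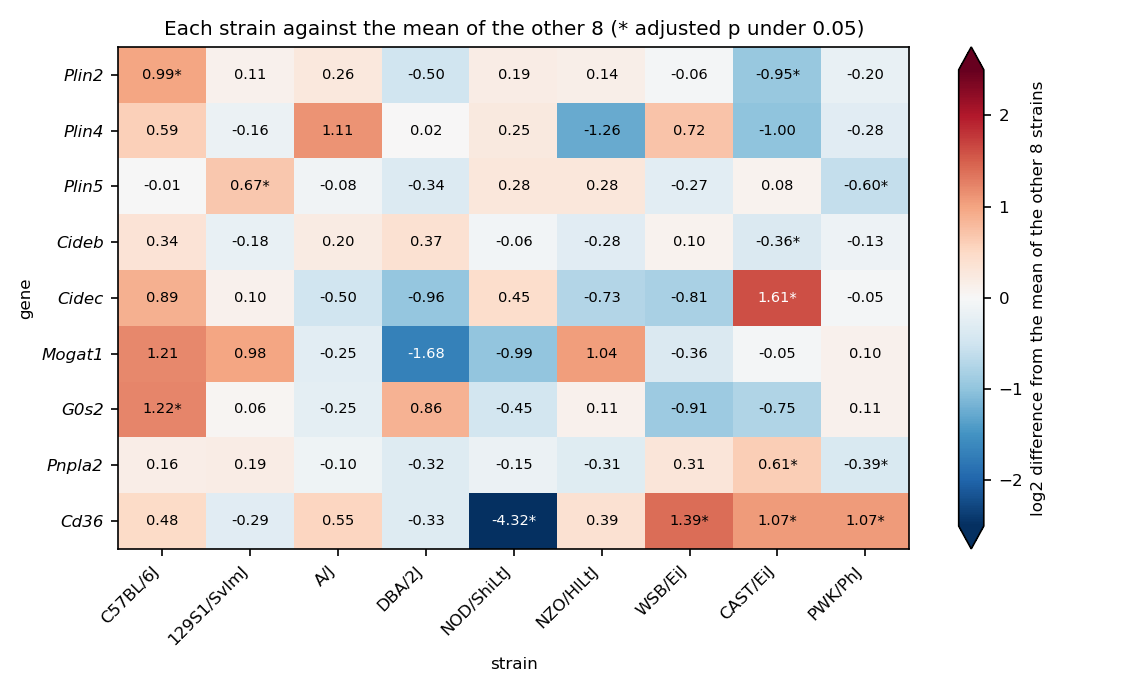
Log2 difference of each strain (x axis) from the mean of the other 8, for the 9 tested genes (y axis), as number and colour; an asterisk marks an adjusted p under 0.05. The NZO/HlLtJ column has no asterisk, CAST/EiJ has 5, and the NOD/ShiLtJ value of Cd36 (-4.32) lies beyond the colour scale.

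CAST/EiJ was the strain with the most calls, 5 of the 9 genes at a background of 37.9%. They were Cidec, Pnpla2 and Cd36 (higher) and Plin2 and Cideb (lower). PWK/PhJ followed with 3 (34.2% background), C57BL/6J with 2 (18.1%), and WSB/EiJ (24.7%), NOD/ShiLtJ (14.9%) and 129S1/SvImJ (18.4%) with 1 each. In A/J the smallest adjusted p was 0.0648 for Plin4 (27.5% background), and in DBA/2J it was 0.0502 for Cideb (13.3%). These contrasts share libraries, so they are not independent of each other.

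Set against each strain in turn, with the same 3 NZO/HlLtJ libraries in all 8 comparisons, NZO/HlLtJ differed in different genes. Against CAST/EiJ it had higher Plin2 (0.97 ± 0.292, adjusted p = 0.0143), lower Cidec (-2.08 ± 0.577, 0.00827) and lower Pnpla2 (-0.82 ± 0.159, 0.000346), at a background of 27%. Against WSB/EiJ it had lower Pnpla2 (-0.55, 0.0105), Cd36 (-0.90, 0.0293) and Plin4 (-1.75, 0.0498), at 33.5%. Against C57BL/6J (29.3%) and DBA/2J (14.2%) it had lower Cideb, by -0.56 (0.0198) and -0.59 (0.0263). Against A/J (36.1%) it had lower Plin4 (-2.11, 0.019), and against PWK/PhJ (34%) higher Plin5 (0.79, 0.0354). Against NOD/ShiLtJ (10.4%) it had 18.2-fold higher Cd36 (4.18 ± 0.356, 5.56e-09). Against 129S1/SvImJ (9.93%) the smallest adjusted p was 0.0857, for Pnpla2. Of these calls, those of Cd36 against NOD/ShiLtJ and of Cidec and Pnpla2 against CAST/EiJ remained whichever library was left out. The others were lost without at least 1 library, with adjusted p up to 0.27 for Plin4 against A/J (-1.10 without A/J replicate 3), 0.188 for Cideb against DBA/2J (-0.42 without DBA/2J replicate 3), 0.142 for Cd36 against WSB/EiJ (-0.70 without NZO/HlLtJ replicate 1) and 0.133 for Pnpla2 against WSB/EiJ (-0.30 without WSB/EiJ replicate 4). The largest such adjusted p was 0.159 for Plin4 against WSB/EiJ (-1.43 without WSB/EiJ replicate 2), 0.107 for Plin5 against PWK/PhJ (0.69 without NZO/HlLtJ replicate 3), 0.0738 for Cideb against C57BL/6J (-0.50 without C57BL/6J replicate 2) and 0.0617 for Plin2 against CAST/EiJ (0.90 without CAST/EiJ replicate 5). Calls were also lost without NZO/HlLtJ replicate 1 or 2 for Plin4 against A/J (0.0662, 0.0687), Plin2 against CAST/EiJ (0.0525, 0.0511), Cideb against C57BL/6J (0.0728, 0.0668) and Cideb against DBA/2J (0.0992, 0.0933). They were lost without CAST/EiJ replicate 1 for Plin2 (0.057), C57BL/6J replicate 4 for Cideb (0.071) and DBA/2J replicate 2 for Cideb (0.0752). Plin5 against PWK/PhJ was lost without NZO/HlLtJ replicate 2 (0.0777) or PWK/PhJ replicate 1 (0.0885) or 3 (0.0985), and Cd36 against WSB/EiJ without NZO/HlLtJ replicate 2 (0.083) or WSB/EiJ replicate 3 (0.0659) or 4 (0.141). Plin4 against WSB/EiJ, close to the threshold, was lost without most single libraries. With the Kupffer and endothelial covariates 7 of the 11 calls did not pass. Cideb against C57BL/6J was then -0.10 (adjusted p = 0.824), Plin4 against A/J -1.05 (0.408), Plin4 against WSB/EiJ -1.14 (0.239), Cd36 against WSB/EiJ -0.58 (0.15), Plin2 against CAST/EiJ 0.72 (0.0878), Plin5 against PWK/PhJ 1.15 (0.0598) and Cidec against CAST/EiJ -1.72 (0.0526).

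Over the deviations of the 27 libraries from their strain means, 0 of 36 pairs of the 9 genes reached an adjusted p under 0.05 by permutation, and 4 had an unadjusted p under 0.05. The pair with the smallest p was Plin2 with Cideb (Pearson r = -0.56, permutation p = 0.01, adjusted 0.33; Spearman rho = -0.62, p = 0.0062, adjusted 0.22), and r was -0.54 without the 2 libraries farthest from the median of Plin2. Cideb with Cd36 had r = 0.57 (permutation p = 0.018, adjusted 0.33; rho = 0.50, p = 0.025, adjusted 0.42), and 0.45 without the 2 farthest libraries.

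Other genes of the same pathways were read from the same contrast, NZO/HlLtJ against the mean of the other strains, in which 14.8% of all genes were called higher and 12.9% lower, with a median log2 difference of 0.016. VLDL assembly, the route by which hepatocytes export triglyceride, had 0 genes called higher and 7 of 8 called lower, with a median of -0.58. They included Apoa4, an apolipoprotein gene (-1.06 ± 0.279, adjusted p = 0.00664), and Mttp, which encodes the transfer protein that lipidates apolipoprotein B (-0.79 ± 0.133, 0.000103). Mttp was at 226 to 287 CPM in NZO/HlLtJ and at 292 CPM or more in every other library. Apoa4 was highest in 129S1/SvImJ (1449 CPM) and WSB/EiJ (1269 CPM), while C57BL/6J (185 CPM) and CAST/EiJ (174 CPM) lay below NZO/HlLtJ (207 CPM). Of the 7 lower calls, the number left was 2, 2 and 5 without NZO/HlLtJ replicate 1, 2 and 3, and 1 with the Kupffer and endothelial levels as covariates, while the median was -0.55, -0.56 and -0.65 without those libraries and -0.35 with the covariates. In NZO/HlLtJ, 10 of 12 endothelial markers and 7 of 10 stellate cell markers were also called lower, with medians of -1.19 and -0.94. Among 11 Kupffer cell markers 1 was higher and 1 lower (median -0.70), and among 10 hepatocyte markers 2 were higher and 3 lower (median -0.32). The part of the hepatocyte and stellate levels in the result was not tested.

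Triglyceride synthesis had 1 of 12 genes called higher and 4 lower (median -0.36), with Dgat1, which encodes an enzyme of the last step, lower by -0.76 ± 0.152 (adjusted p = 0.000662). Lipolysis and its regulators had 2 of 11 higher and 1 lower (median -0.06). Among 13 tested genes of other droplet proteins and droplet assembly, 3 were higher and 3 lower (median -0.16). Hsd17b11, which encodes a droplet-associated dehydrogenase, was lower by -0.98 ± 0.154 (4.47e-05). The higher genes were Gpat3 (0.53 ± 0.17, 0.0223) in synthesis, Ces1g (0.89 ± 0.187, 0.00111) and Lipe (0.48 ± 0.132, 0.00911) in lipolysis, and Acsl4 (0.51 ± 0.165, 0.0252), Pcyt1a (0.38 ± 0.116, 0.0187) and Fitm1 among the droplet proteins. Aup1, which encodes a protein of droplets and the endoplasmic reticulum, was lower by -0.69 ± 0.149 (0.00144). For Mttp, Dgat1, Hsd17b11 and Aup1 all 3 NZO/HlLtJ libraries lay below the other 24, as for 1.09% of all genes; these 4 and the higher genes other than Fitm1 were named after their values were seen. Without NZO/HlLtJ replicate 1, 2 and 3, synthesis had 0 genes higher and 1, 2 and 5 lower, with medians of -0.27, -0.30 and -0.50. The droplet proteins had 1 higher and 3 lower without NZO/HlLtJ replicate 1, 2 or 3. Lipolysis had 1 higher and 0 lower without NZO/HlLtJ replicate 1, and 3 and 2 without DBA/2J replicate 4. With marker covariates the calls in these lists were 1 higher and 1 lower for synthesis, 1 and 0 for lipolysis, and 1 and 2 for the droplet proteins. Fitm1, a gene of droplet formation, was called higher at 5.58 ± 0.619 CPM, but C57BL/6J had 4.84 ± 1.09 CPM (SD, n = 3 each) with overlapping libraries, and CAST/EiJ was at 0 in all 3, so no fold is given.

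Fatty acid uptake and activation had 1 of 13 genes called higher and 3 lower (median -0.22), and 1 each without NZO/HlLtJ replicate 1 or 2. The higher one was Vldlr, a lipoprotein receptor gene (log2 1.68 ± 0.266, adjusted p = 4.85e-05), at 17.2 ± 6.48 CPM in NZO/HlLtJ, but 129S1/SvImJ was higher still at 21.6 ± 9.11 CPM. Fabp4, a fatty acid carrier of adipocytes, macrophages and endothelium, was lower (-1.67 ± 0.538, 0.024), at 0.274 CPM (2 to 14 counts). PWK/PhJ had 8.25 CPM, and the means of the remaining strains ran from 0.423 CPM in WSB/EiJ to 1.02 CPM in DBA/2J. NZO/HlLtJ libraries overlapped with those of 129S1/SvImJ, A/J, CAST/EiJ and WSB/EiJ. Of the 13 PPAR and SREBP regulators, 2 were higher and 1 lower (median -0.31), and 1 each without NZO/HlLtJ replicate 1 or 2 or with the marker covariates. Ppard, which encodes a nuclear receptor of fatty acids, was higher (1.67 ± 0.248, 1.98e-05) at 21.3 ± 4.43 CPM, and NOD/ShiLtJ overlapped with it at 19.3 ± 6.26 CPM. Pparg itself was at 2.63 ± 0.288 CPM in NZO/HlLtJ against a mean of 2.28 CPM in the others (0.89 ± 0.357, 0.0659). It was named as the regulator given in the background. The means of 129S1/SvImJ (6.46 CPM) and C57BL/6J (4.255 CPM) were higher than that of NZO/HlLtJ. The log2 difference, an average over strains on the log scale, is widened by PWK/PhJ at 0.107 CPM (2 to 4 counts).

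**Figure D4:**
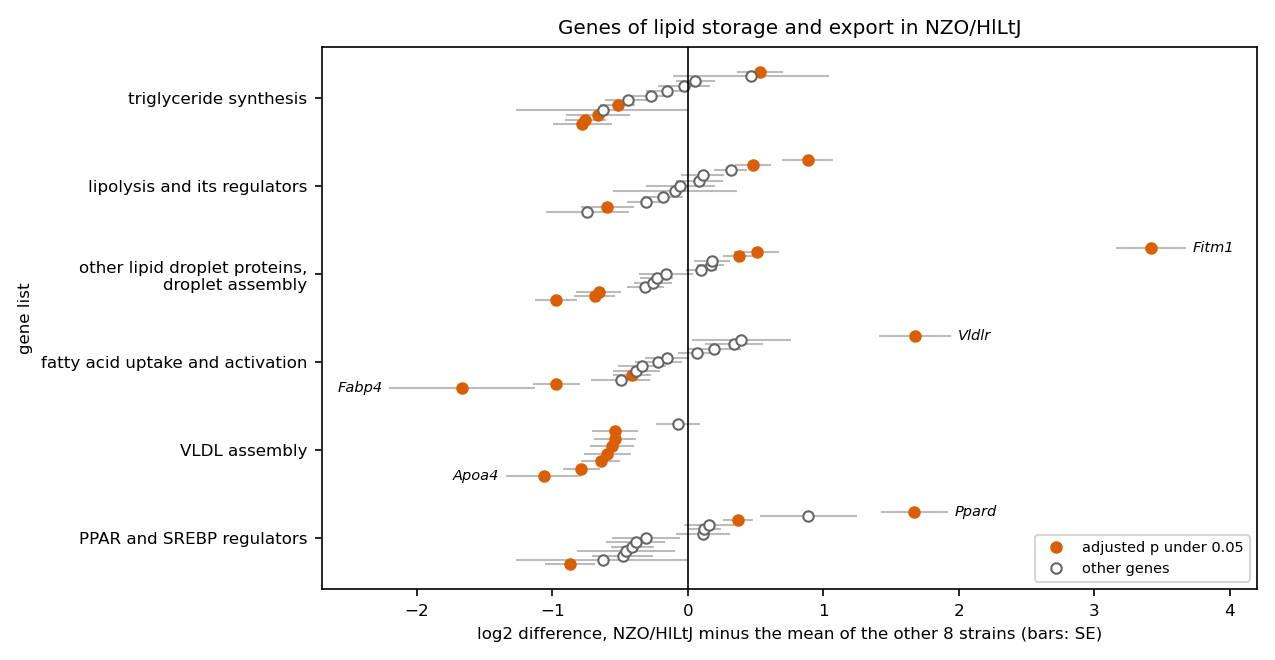
Log2 difference of NZO/HlLtJ from the mean of the other 8 strains (x axis; bars are SE) for the tested genes of 6 lists (y axis); filled orange points have an adjusted p under 0.05, and genes beyond 1 in either direction are named. The 7 filled points of VLDL assembly all lie left of 0, and the value of Fitm1 depends on how a strain at 0 counts is treated.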

How the data were processed

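Poly(A) RNA libraries were made with a TruSeq kit whose strand setting is not stated, per the labels' protocols. The authors deposited 1 table of estimated counts per Ensembl gene, not scaled to depth, of which 14.7% of values were not whole. GRCm38, mm10, FastQC 0.11.5 and DESeq2 are named, with no role, in the submitters' processing notes; the aligner, the counter and whether each strain had its own genome are not given in the sources used here. Reads of strains that differ from the reference in sequence, NOD/ShiLtJ, CAST/EiJ and PWK/PhJ included, may be counted differently for that reason, which was not tested.

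Symbols and coordinates came from GENCODE M21 (GRCm38), which named 42462 of 43346 IDs, and promoters from RefSeq (GRCm38.p6). Counts were rounded to whole numbers and fitted with edgeR 4.0.16 (filterByExpr, TMM factors 0.722 to 1.23, quasi-likelihood F test) over all 27 libraries with strain as the only term. P-values were adjusted by Benjamini-Hochberg over 14482 genes, within each contrast, and called under 0.05. SE is the log2 difference divided by the square root of F. Ratios were tested by 100000 permutations with 0.5 CPM added. Likeness is Pearson's r of log2 CPM with a prior count of 2.

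The members and lists were chosen with earlier results of these data known. All 10 genes are named. For each gene with a called strain effect the 3 most similar genes of at least 1 CPM are named, and list genes are named where called with a 2-fold change; 9 smaller calls and Pparg were named after their values were seen. Alternatives were DESeq2 1.42.0, its size factors, other filters, a replicate block, Kupffer and endothelial marker levels as covariates, and leaving out libraries; leaving out strains, counts without rounding, the Cd36 contrasts without NOD/ShiLtJ, the member pairs and the list counts under each setting were added after seeing the data. Same-numbered libraries of different strains did not deviate together, so the numbers were not used as pairs. Replicates of a strain differed by more than sampling noise (chi-square per degree of freedom at least 24.4). On simulated data with 14482 genes, the contrast of NZO/HlLtJ recovered 80% of 2-fold and 96% of 4-fold changes. The changed genes were drawn from those with higher mean counts, so these shares do not cover genes as scarce as Cidec and Mogat1.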

Additional observations from a re-analysis of the deposited data

How the results depend on the processing

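Member calls by edgeR kept their direction and their side of the threshold with median-of-ratios size factors, a mean of at least 10 counts and counts without rounding. Reversed values concerned differences that were never called. Plin2 in NZO/HlLtJ against the mean of the others was -0.16 with Kupffer and endothelial covariates, and G0s2 ran from -0.24 without NZO/HlLtJ replicate 1 to 0.32 without its replicate 3. The cause was not tested.

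Numbers of genes called over the whole table moved with those covariates to 1602 from 2663 in 129S1/SvImJ, 2597 from 3989 in A/J, 1034 from 2616 in C57BL/6J, 2904 from 1923 in DBA/2J and 1698 from 4002 in NZO/HlLtJ. In NZO/HlLtJ against A/J, C57BL/6J and PWK/PhJ they moved to 2233, 969 and 2483 from 5221, 4249 and 4921. Fitting only the 6 libraries of NZO/HlLtJ and NOD/ShiLtJ gave 2512 in place of 1510.

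With the replicate block CAST/EiJ had 3193 in place of 5488, where the number 5 occurs in 1 CAST/EiJ library alone. Same numbers pair the libraries in number only: r of their deviations ran from -0.29 to 0.28 over 76 pairs, and 7 of 27 libraries were closest to one of their own number. Under the block the strain effect was not called for Cidec (adjusted p = 0.186) or Cideb (0.0508) and was called for Plin4 (0.0498); Plin4 in NZO/HlLtJ was called too (-1.31, 0.0386). Calls were also lost for Cidec in CAST/EiJ (1.12, 0.164), Cideb in CAST/EiJ (-0.28, 0.31) and Plin5 in PWK/PhJ (-0.54, 0.0563), and in NZO/HlLtJ for Cidec against CAST/EiJ (-1.52, 0.168), Cideb against DBA/2J (-0.58, 0.0593) and Pnpla2 against WSB/EiJ (-0.44, 0.0523). Without the filter on low counts Cideb was not called in CAST/EiJ (-0.35, 0.079) or in NZO/HlLtJ against DBA/2J (-0.56, 0.0516), nor was the latter with only those 6 libraries (-0.60, 0.075).

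Leaving out each library gave 1444 to 3129 genes called in 129S1/SvImJ, 1973 to 4633 in A/J, 1350 to 3208 in C57BL/6J, 4020 to 5863 in CAST/EiJ, 1226 to 2129 in DBA/2J, 1329 to 2332 in NOD/ShiLtJ, 2084 to 4501 in NZO/HlLtJ, 3939 to 5154 in PWK/PhJ and 2368 to 4048 in WSB/EiJ. NZO/HlLtJ gave 972 to 1558 against 129S1/SvImJ, 3153 to 5596 against A/J, 2288 to 5112 against C57BL/6J, 3033 to 4174 against CAST/EiJ, 1090 to 3102 against DBA/2J, 1011 to 1700 against NOD/ShiLtJ, 3651 to 5176 against PWK/PhJ and 3383 to 5168 against WSB/EiJ. The strain effect was called in 10352 to 11245 genes. Adjusted p for the ratios stayed between 0.004 and 0.025. Of 1134 values with 1 library left out, 1072 kept their direction and side of the threshold.

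Cidec, Mogat1 and Plin4 had at most 38, 31 and 150 counts in a library. The share of counting error in their spread was not tested.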
